A study of Mus musculus with 4 samples.

Results

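The enzymes that convert squalene to cholesterol were followed at the RNA level in the cerebellum of mice that lack Derl2 in the nervous system. The 9 genes, Sqle, Lss, Cyp51, Msmo1, Nsdhl, Hsd17b7, Ebp, Sc5d and Dhcr7, were taken as the steps of the pathway after squalene, and every non-control probe whose RefSeq accession belongs to one of them was used, whatever its value. This gave 15 probes of the 56605 on the array, and 9 of the 22911 genes that could be named. RNA was taken at postnatal day 28 from 2 control and 2 knockout (KO) mice, all C57BL/6, and each animal was hybridised to 1 one-colour Agilent array. The controls were Derlin-2flox/flox, and the KO mice came from breeding Derl2flox/flox mice with mice carrying a Cre recombinase under the nestin promoter. Nestin-driven Cre acts in neural precursors, so neurons and the glia that descend from them are targeted, while microglia, blood cells and vessel cells are not. The labels do not say whether the controls carried Cre, nor give sex or litter.

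Neurons and glia make their own cholesterol, because lipoproteins of the blood do not cross into the brain, and demand is high in the weeks when oligodendrocytes wrap axons in myelin. The late pathway sits in the membrane of the endoplasmic reticulum (ER), where Derlin-2, the product of Derl2, takes part in ER-associated degradation. Squalene is oxidised by squalene epoxidase (Sqle) and closed into the ring system of lanosterol by lanosterol synthase (Lss). Methyl groups are then removed by Cyp51 and by the complex of Msmo1, Nsdhl and Hsd17b7, and the last bonds are moved, made and reduced by Ebp, Sc5d and Dhcr7. Transcription of these genes is driven by SREBP-2, which is held in the ER when sterols are plentiful and which works at promoters together with the CCAAT-binding factor NF-Y and the GC-box factor Sp1.

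RefSeq promoters (build GRCm38.p6) were read for the 250 bases before each annotated start. A window was at hand for 8 of the 9 genes; Sqle had no entry. The CCAAT box, searched as CCAAT on either strand, was present before a start of all 8 genes, against 37.5% of the 27025 genes in the table. The GC box, GGGCGG on either strand, was also present for all 8, against 35.4%. A base may belong to more than one match. Neither motif was a criterion in choosing the genes. A strict sterol regulatory element, TCACNCCAC on either strand, matched 0 of the 8, against 1.22% of all genes, which says only that those letters are not in these windows. As shares of windows, since a gene can have several starts, CCAAT was found in 8 of the 10 windows of these genes and 33.8% of all 32851, GGGCGG in 9 of 10 and 32.7%, and TCACNCCAC in 0 of 10 and 1.05%. These boxes were also frequent before the mevalonate enzymes, where CCAAT and GGGCGG were each present for 5 of 6 genes with a window and TCACNCCAC for 1 of 6. Among other genes of the late pathway CCAAT was present for 2 of 3 and GGGCGG for 3 of 3. The 4 windows below belong to genes picked by their values, though none was called. They are Lss and Cyp51, whose probes were all nominally higher in KO, Msmo1, both of whose probes varied widely between animals, and Sc5d, which was lower in both KO animals. Ebp and Dhcr7, also lower in both KO animals, are not shown. Windows 1 and 2 of Dhcr7 held no CCAAT, and window 2 held no GGGCGG either. Capitals mark CCAAT or its reverse complement ATTGG, and GGGCGG or its reverse complement CCGCCC.
Lss (chr10:76531355-76531604, plus strand): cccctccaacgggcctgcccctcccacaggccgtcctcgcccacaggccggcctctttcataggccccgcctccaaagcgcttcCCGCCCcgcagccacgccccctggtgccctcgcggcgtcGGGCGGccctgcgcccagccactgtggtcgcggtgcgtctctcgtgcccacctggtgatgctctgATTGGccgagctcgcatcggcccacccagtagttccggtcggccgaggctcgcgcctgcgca
Cyp51 (chr5:4104698-4104947, minus strand): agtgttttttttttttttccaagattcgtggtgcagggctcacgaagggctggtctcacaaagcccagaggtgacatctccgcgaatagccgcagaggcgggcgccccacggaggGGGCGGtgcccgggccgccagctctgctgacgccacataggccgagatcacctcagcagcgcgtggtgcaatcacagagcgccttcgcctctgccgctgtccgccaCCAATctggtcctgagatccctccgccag
Msmo1 (chr8:64733579-64733828, minus strand): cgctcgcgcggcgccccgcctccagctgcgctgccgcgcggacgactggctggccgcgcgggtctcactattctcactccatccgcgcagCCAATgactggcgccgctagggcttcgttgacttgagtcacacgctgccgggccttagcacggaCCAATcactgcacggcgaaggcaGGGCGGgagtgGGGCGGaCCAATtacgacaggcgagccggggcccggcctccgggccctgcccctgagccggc
Sc5d (chr9:42264301-42264550, minus strand): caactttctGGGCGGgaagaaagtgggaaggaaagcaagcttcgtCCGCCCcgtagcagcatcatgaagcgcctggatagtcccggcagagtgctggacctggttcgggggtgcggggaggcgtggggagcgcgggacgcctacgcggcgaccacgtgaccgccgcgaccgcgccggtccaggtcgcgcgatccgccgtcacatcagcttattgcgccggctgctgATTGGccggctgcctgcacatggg
Msmo1 carried 3 CCAAT and 2 GC boxes in this stretch, Lss 1 and 2, Cyp51 1 and 1, and Sc5d 1 and 2.

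Signals are given as log2 of the processed intensity minus the array's 75th percentile, so that 0 is that percentile and 1 unit is a 2-fold step. Levels of different probes are not comparable with each other, since probes differ in how well they bind. KO was compared with control by limma over all 37516 probes well above background, with Benjamini-Hochberg adjustment and a threshold of 0.05. The 4 arrays lay on 1 slide, no spot was saturated, and 66.4% to 69.4% of spots were well above background. Controls held one end of the slide and KO animals the other, so group and slide position cannot be told apart. Derl2 itself was read on 2 probes: A_51_P498831 gave 2.13 and 2.20 in the controls and 0.81 and 0.70 in KO, and A_55_P2178203 gave 0.44 and 0.47 against −1.22 and −1.32. The differences were −1.41 and −1.73, KO levels of 37.6% and 30.2% of control, and the groups did not overlap on either probe. Even so neither passed the threshold (limma adjusted p 0.273 for both). Both passed when limma was run with an intensity trend and robust variances together (limma adjusted p 0.0166). A_55_P2178203 also passed after normexp background correction (limma adjusted p 0.0384). In simulated data with 200 of 37516 probes changed, 0% of differences of 1 on the log2 scale passed, and 95.5% of differences of 2. Of the unchanged probes there, 4.78% and 4.69% had an unadjusted limma p under 0.05, against 14% of all probes in the real data. Adjusted p depends on that share, so these pass rates need not hold for the real arrays. Summed levels of marker genes are in units of the 75th percentile. Marker genes of choroid plexus, a tissue within the ventricles, gave far more signal in control replicate 2 than elsewhere. The summed level of the 9 of 10 kept was 243 there, 33.5 in the other control and 24.6 and 26.7 in KO. Red blood cell genes were also highest there, with a summed level over the 4 of 6 kept of 346, against 235 in the other control and 234 and 231 in KO. The RNA comes from whole tissue, so fewer cells of a type and less RNA per cell cannot be told apart.

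No difference between KO and control was called for any enzyme of the pathway. Each of the 15 probes was a single spot without outlier flag and cleared background in all 4 animals. In limma 0 passed the adjusted threshold, as did 0% of all probes tested, and 0 had an unadjusted p under 0.05, against 14% of all probes (8.84% higher and 5.2% lower in KO). Their adjusted p ran from 0.481 to 0.982. The differences lay between −0.18 and 0.19 on the log2 scale, with 9 probes below 0 and 6 above, against 54.8% of all probes below 0. The median size of a difference, without its sign, was 0.10 for these probes and 0.164 for all probes tested. Because a p above the threshold does not show equal levels, the 95% intervals of the fit are given for each probe. The widest ranges they allow were a KO level of 67.5% of control for Sqle and 150% of control for a Cyp51 probe. No interval reached a 2-fold difference in either direction, while 12.4% of all probes tested had an interval that did. These intervals rest on 4.35 degrees of freedom, of which 2.35 come from the spread of all probes, so a close agreement of 2 animals does not narrow them below an SE of about 0.10.

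**Figure D1:**
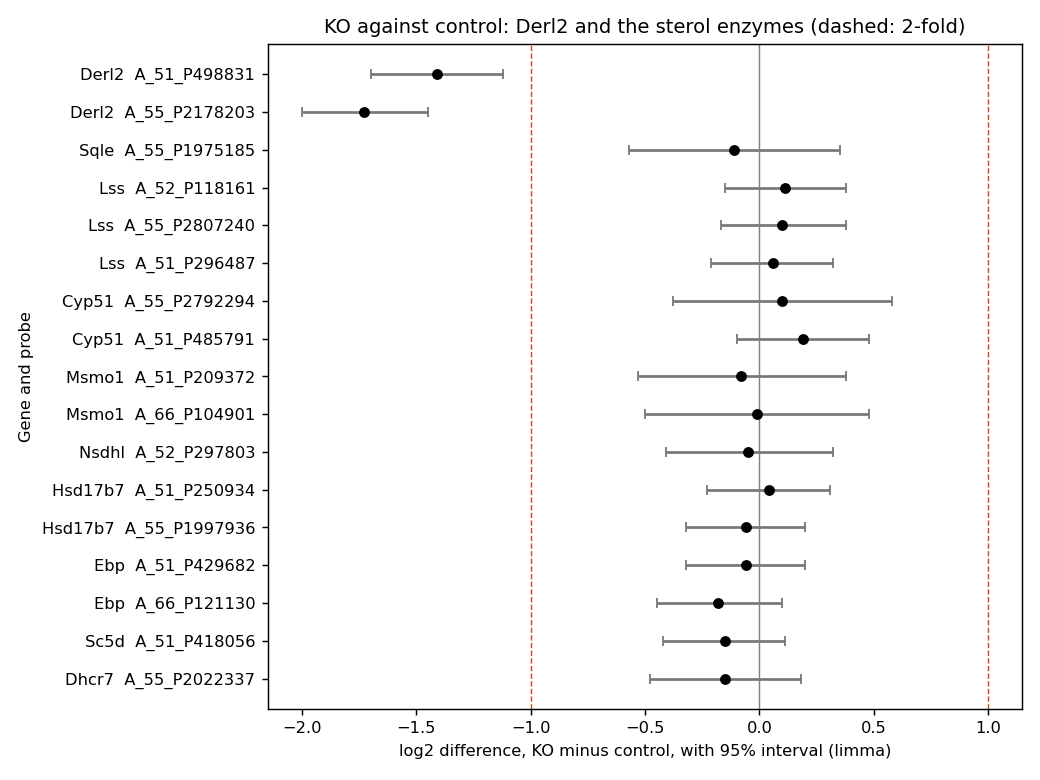
The log2 difference KO minus control is plotted on the horizontal axis for the 2 probes of Derl2 and the 15 probes of the pathway in pathway order, each point with its 95% interval from limma; dashed lines mark 2-fold. The Derl2 intervals lie wholly below −1, and the pathway intervals run from −0.57 at the lowest to 0.58 at the highest and all include 0.

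Sqle, the epoxidase that commits squalene to sterols and a rate-controlling step, was read by 1 probe. The controls gave log2 signals of 3.32 and 3.62 and the KO animals 3.22 and 3.50, so the groups overlapped, with KO replicate 2 between the controls. The means were 3.47 ± 0.21 (SD, n = 2) and 3.36 ± 0.20 (SD, n = 2), a difference of −0.11 (SE 0.17, 95% interval −0.57 to 0.35; limma adjusted p 0.784). The 2 controls differed by 0.30 and the 2 KO animals by 0.28, each more than the groups did. Without control replicate 2 the difference was 0.04, and without KO replicate 1 it was 0.03, so its sign rested on those animals.

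Lss, which folds the opened squalene into lanosterol, was read by 3 probes, and all 3 were higher in KO in both animals. On the brightest, A_52_P118161, the signal was 0.99 and 0.98 in control and 1.06 and 1.12 in KO. On A_55_P2807240 it was 0.27 and 0.38 against 0.43 and 0.43, and on A_51_P296487 it was −1.68 and −1.63 against −1.60 and −1.60. The groups were separate on every Lss probe, but by little; of all probes, 22.5% were separate and higher in KO. The differences were 0.11, 0.10 and 0.06, each with an SE of 0.10 and a limma adjusted p between 0.629 and 0.803. For the brightest probe the 95% interval was −0.15 to 0.38, a KO level of 89.9% to 130% of control. The 3 probes share the same RNA, so their agreement is not further replication.

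Cyp51, the P450 enzyme that takes the first methyl group off lanosterol, was read by 2 probes that disagreed on how the animals were ordered. The brighter, A_55_P2792294, gave 1.57 and 2.01 in control and 1.85 and 1.94 in KO, so both KO animals fell between the controls. Its spot on the array of control replicate 1 lay on a patch of raised local background, 122 there against 19.0 to 22.0 on the other arrays. The difference was 0.10 (SE 0.18; limma adjusted p 0.817) and became −0.12 without control replicate 1; with patch spots left out this probe had no value. The dimmer probe, A_51_P485791, off the patch, gave −2.08 and −2.01 in control and −1.80 and −1.92 in KO. Here the groups were separate, and the difference of 0.19 (SE 0.11, 95% interval −0.10 to 0.48; limma adjusted p 0.481) was the highest of the 15. That interval puts the KO level between 93.3% and 140% of control.

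Msmo1, Nsdhl and Hsd17b7 remove the remaining methyl pair of the sterol nucleus by oxidation, decarboxylation and reduction of the ketone left behind. Msmo1, the oxidase, gave 3.98 and 4.23 in control and 3.86 and 4.19 in KO on probe A_51_P209372. On its second probe, A_66_P104901, it gave 1.74 and 1.95 against 1.63 and 2.03. On both probes KO replicate 1 was the lowest array and the groups overlapped. The differences were −0.08 (SE 0.17) and −0.01 (SE 0.18), with limma adjusted p of 0.856 and 0.982. Nsdhl, the decarboxylating dehydrogenase, gave −0.58 and −0.62 in control and −0.79 and −0.51 in KO. Its controls lay between its KO animals, and the difference was −0.05 (SE 0.14, 95% interval −0.41 to 0.32; limma adjusted p 0.884). Hsd17b7, the ketone reductase, differed in sign between its 2 probes: 1.96 and 2.04 against 2.06 and 2.02 on A_51_P250934, and −0.85 and −0.83 against −0.90 and −0.90 on A_55_P1997936. The differences were 0.04 and −0.06, each with an SE of 0.10, and the limma adjusted p were 0.861 and 0.79. Hsd17b7 was the only one of the 5 genes with several probes whose probes differed in sign.

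The last enzymes of the pathway were all lower in both KO animals than in both controls, by small amounts and without a call, and the brighter Ebp probe turned to 0.02 under spike-in scaling. Ebp, the isomerase that shifts a double bond within the ring system, gave 4.30 and 4.32 in control and 4.25 and 4.23 in KO on A_51_P429682, and 1.57 and 1.58 against 1.34 and 1.46 on A_66_P121130. The differences were −0.06 (SE 0.10; limma adjusted p 0.784) and −0.18 (SE 0.10; limma adjusted p 0.496), and the second was the lowest of the 15. Sc5d, the desaturase that makes the precursor of the final step, gave 2.91 and 2.86 against 2.72 and 2.74. Its difference was −0.15 (SE 0.10, 95% interval −0.42 to 0.11; limma adjusted p 0.519), a KO level of 89.9% of control with an interval from 74.9% to 108%. Dhcr7, the reductase that yields cholesterol and is mutated in Smith-Lemli-Opitz syndrome, gave −0.35 and −0.13 in control and −0.41 and −0.38 in KO. The difference was −0.15 (SE 0.12, 95% interval −0.48 to 0.18; limma adjusted p 0.601), but the controls lay 0.22 apart, and without control replicate 2 it was −0.04. The groups of these 4 probes were separate, as were those of 26.9% of all probes in the same direction.

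**Figure D2:**
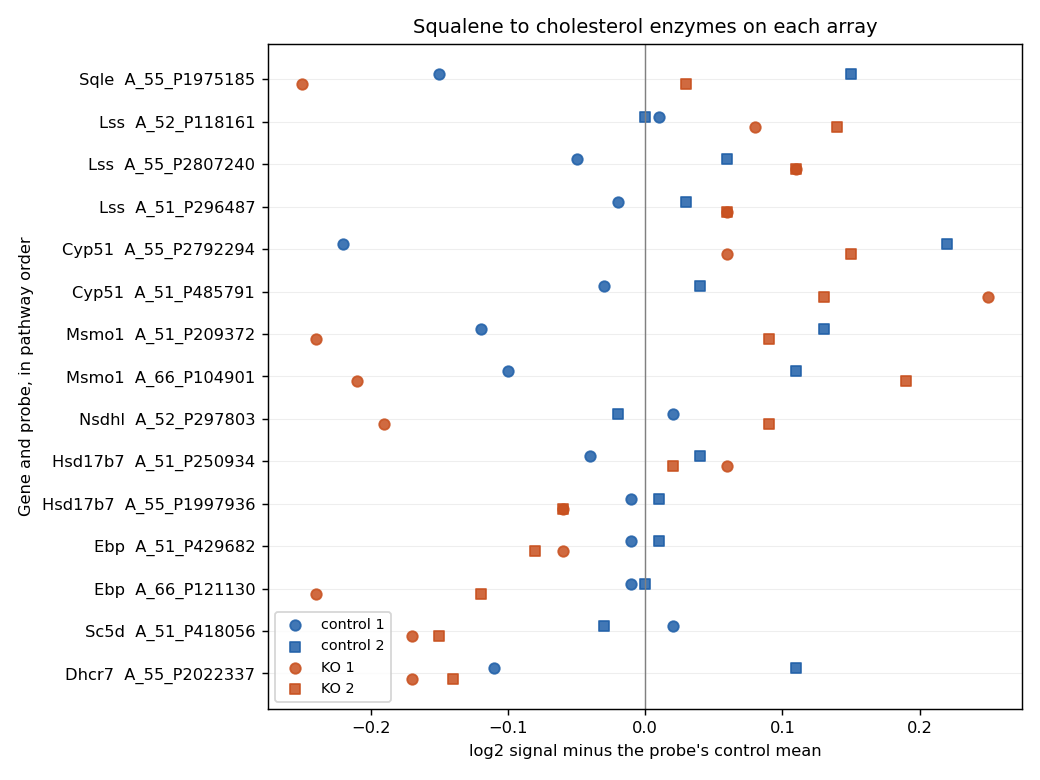
Each row is 1 probe of the pathway, in pathway order, and each point is 1 array, with the log2 signal minus that probe's control mean on the horizontal axis (blue, control; orange, KO; circles, replicate 1; squares, replicate 2). The points of all 15 probes lie within 0.3 of the control mean; the KO points of Ebp, Sc5d and Dhcr7 lie to the left of their controls, and those of Lss to the right.

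Over the whole pathway, 9 of the 15 probes had groups that did not overlap, 5 lower and 4 higher in KO, against 49.3% of all probes (26.9% lower and 22.5% higher). With groups separate and at least 2-fold apart there were 0 of 15, against 1.18%. With the brightest probe per gene, 4 of 9 genes were separate, 3 lower (Ebp, Sc5d, Dhcr7) and 1 higher (Lss), against 45.9% of 16524 genes (32.1% lower and 13.8% higher). Of the 9 genes 6 were below 0, against 63.9%. The median difference of the 9 genes was −0.06, and that of all 16524 genes was also −0.06. Set against control replicates 1 and 2 in turn, KO replicate 1 had a median over the 9 of −0.06 and −0.16, and KO replicate 2 one of 0.07 and −0.08, so its sign depended on the animals compared. The balance of signs also depended on the scaling: with the arrays scaled to spike-in probes, 11 of the 15 probes were above 0 in place of 6, as the share of all probes above 0 went from 45.2% to 60.4%. Under that scaling the median of all probes moved by 0.08. Ebp on A_66_P121130, Sc5d and Dhcr7 stayed below 0 under every alternative setting tried. In the same settings 2 Lss probes, the dimmer Cyp51 probe and the brighter Hsd17b7 probe stayed above 0, all without passing the threshold. Some of these settings change only the filter, the variances or the block, which leaves each difference as it was.

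Animals of the same group differed from each other more than the groups did for 8 of the 15 probes, against 63.8% of all probes. Beside the gaps of Sqle, Msmo1 differed by 0.24 between the controls and 0.33 between the KO animals on A_51_P209372, and by 0.21 and 0.40 on A_66_P104901. For Msmo1 on A_66_P104901 the KO gap was at percentile 84.0 among all probes, and for Sqle the control gap was at percentile 79.7. In each case replicate 2 was the higher animal of its group, as it was in both groups for 9 of the 15 probes, against 27.5% of all probes. That count includes very small gaps. Between the KO animals the gap rounded to 0 for Lss on A_51_P296487 and Hsd17b7 on A_55_P1997936, and was 0.01 for Lss on A_55_P2807240. It also includes Cyp51 on A_55_P2792294, with a control spot on the patch, and more than 1 probe each of Lss and Msmo1. Nsdhl differed by 0.28 between the KO animals and by only 0.04 between the controls. In contrast, the brighter Ebp probe, Sc5d and the dimmer Hsd17b7 probe differed by 0.04 or less within either group. The median gap over the 15 probes was 0.0702 between controls and 0.0624 between KO animals, against 0.132 and 0.165 over all probes. No correlation across arrays is given, since 4 animals are too few.

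**Figure D3:**
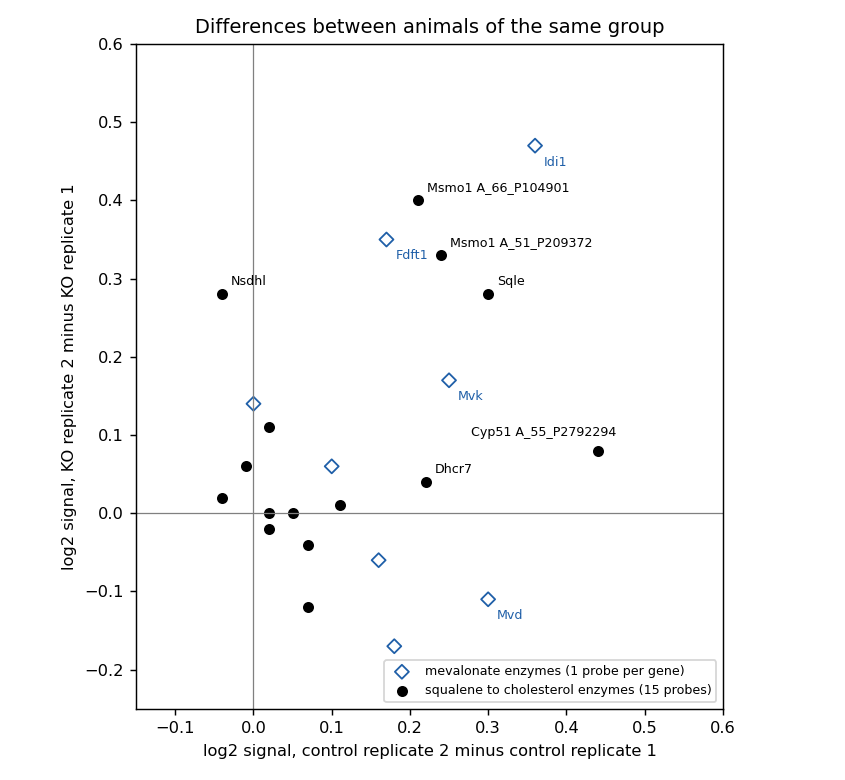
The horizontal axis is the log2 signal of control replicate 2 minus control replicate 1, and the vertical axis that of KO replicate 2 minus KO replicate 1; black points are the 15 pathway probes and open diamonds are 8 mevalonate enzymes. Sqle, both Msmo1 probes, Idi1, Fdft1 and Mvk lie in the upper right, where replicate 2 was higher in both groups, and Cyp51 on A_55_P2792294, with a control spot on the patch, lies far to the right.

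Other genes of the late pathway gave differences of like size. Erg28, the scaffold that holds the methyl-removing complex together, had the smallest p: it gave 4.98 and 5 in control and 4.75 and 4.76 in KO, a difference of −0.24 (SE 0.10, 95% interval −0.50 to 0.02; limma adjusted p 0.38). Tm7sf2, a sterol reductase that acts just after Cyp51, had a difference of 0.10 (SE 0.10). Lbr, the other reductase of that step, had one of 0.08 (SE 0.10). Of these 5 genes, 0 passed the threshold, 2 were higher and 3 lower, and the groups of 4 were separate, 2 in each direction, against 45.9% of all genes (13.8% higher and 32.1% lower). Marchf6, the ER ubiquitin ligase known to target squalene epoxidase for degradation, gave 2.85 and 2.85 in control and 2.93 and 2.76 in KO, a difference of 0 (SE 0.11). In its list of 6 genes for the degradation of sterol enzymes, the smallest p belonged to Rnf145 with 0.10 (SE 0.10) and Vcp with −0.09 (SE 0.10), and 0 passed.

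Upstream of squalene, 8 of the 9 mevalonate enzymes had a kept probe, with a median of 0.07, and 0 passed. Their smallest p belonged to Fdps, the farnesyl diphosphate synthase (0.21, SE 0.11), and Hmgcs1, the HMG-CoA synthase (−0.19, SE 0.11). Gaps between animals were again wide for some of them: Idi1, the isomerase of the pathway's isoprene units, differed by 0.36 between controls and 0.47 between KO animals, and Fdft1, which makes squalene, by 0.17 and 0.35. Among 11 kept genes of SREBP control and sterol uptake, 3 were higher and 8 lower with a median of −0.10, and 0 passed. Stard4, a sterol carrier, was the gene with the smallest p there: 0.88 and 0.90 in control and 1.27 and 1.46 in KO, a difference of 0.47 (SE 0.12; limma adjusted p 0.282). Srebf2, which encodes SREBP-2, gave −1.23 and −1.10 against −0.79 and −0.67, a difference of 0.44 (SE 0.11; limma adjusted p 0.286). Npc2, which hands cholesterol out of lysosomes, had −0.29 (SE 0.14). The 95% intervals of Stard4 and Srebf2 excluded 0 before adjustment, at 0.16 to 0.79 and 0.13 to 0.75, while those of the 9 pathway genes included 0; with 1 probe per gene, 8.81% of genes had an unadjusted p under 0.05.

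Cholesterol export, storage and turnover had 2 genes higher and 7 lower of 9, with a median of −0.07, and 0 passed. Soat1, which esterifies cholesterol, had the smallest p, at −0.27 (SE 0.10; limma adjusted p 0.346), followed by Apoe, the main lipid carrier of the brain, at −0.20 (SE 0.10) and Cyp46a1, the neuronal hydroxylase that lets cholesterol leave the brain, at −0.16 (SE 0.17). Among 5 ER electron donors and partners of these enzymes, Pgrmc1, which binds Cyp51, was at −0.21 (SE 0.11) and Cyb5b at −0.11 (SE 0.10). Cyb5a, the cytochrome that feeds electrons to Sc5d and Msmo1, was at 0.66 (SE 0.49). Its controls were far apart, at 2.89 and 4.26, against 4.06 and 4.41 in KO, and its spot on control replicate 1 lay on the patch of raised background.

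**Figure D4:**
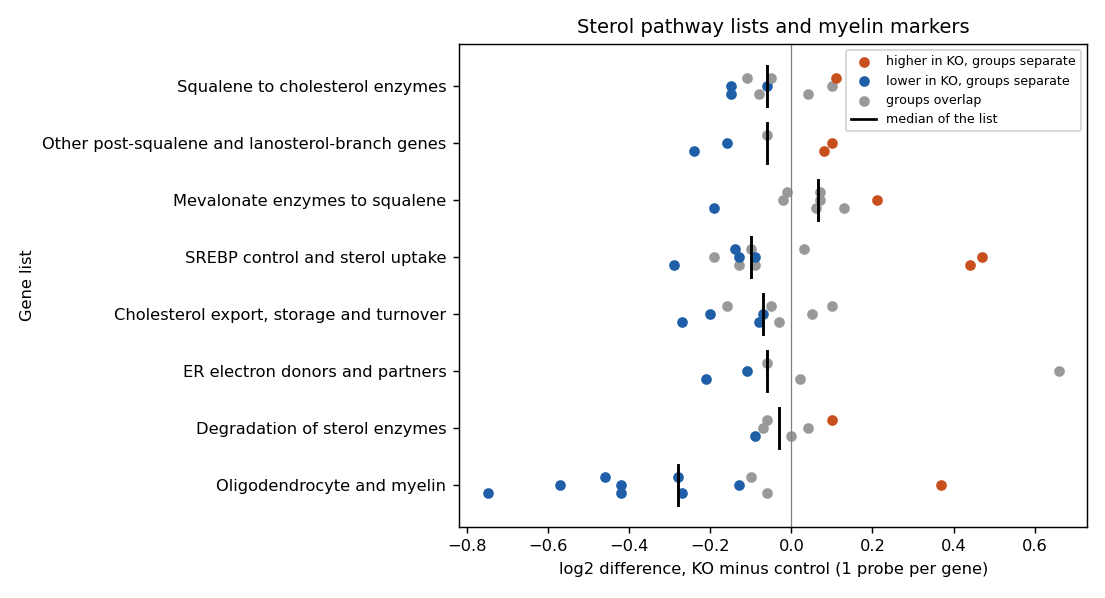
Each point is 1 gene (its brightest kept probe), placed by its log2 difference KO minus control, for 7 sterol lists and the oligodendrocyte markers; orange and blue points have groups that do not overlap, grey points overlap, and the bar is the list's median. The 9 squalene to cholesterol enzymes lie between −0.15 and 0.11 with a median of −0.06, and the oligodendrocyte markers spread from −0.75 to 0.37 with a median of −0.28.

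Markers of oligodendrocytes, which use much cholesterol for myelin, were mostly lower in KO without a call. Of 12 markers 11 were kept, 10 were lower and 1, Ermn, was higher; 8 were lower with separate groups. Over all genes 63.9% were lower and 32.1% were lower with separate groups. The median was −0.28, and 0 passed the adjusted threshold. Opalin gave 0.18 and −0.24 in control and −0.79 and −0.77 in KO, and Mag, a myelin adhesion protein, gave 4.53 and 4.39 against 3.84 and 4.16. The 11 kept markers summed to 416 and 393 in control and to 349 and 387 in KO, and Myrf was not well above background. For the 9 enzymes themselves the sum came to 63.2 and 69.9 in control and to 60.7 and 66.6 in KO. Astrocyte and Bergmann glia markers had a median of −0.13 with 8 of 10 lower and a summed level of 259 and 263 against 215 and 227. Purkinje and granule cell markers had medians of −0.06 and 0.02. Microglial markers, of cells that the Cre does not target, had a median of −0.23 with 10 of 10 lower, and a sum of 85.7 and 90.5 against 81.3 and 82.6. The part of these cell types, and of the choroid plexus and red blood cell signal on control replicate 2, in the values of the 9 enzymes was not tested.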

How the data were processed

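RNA of 4 mouse cerebella (150 ng each, Cy3) was measured on one-colour Agilent arrays, as the labels' protocols state. Groups and replicate numbers are those of the sample titles; whether animals were littermates is not stated, and p-values measure only the spread between these samples. Per the file headers, the deposited scanner output was made with Agilent Feature Extraction, version 12.1.1.1 (the submitters' processing notes name 10.7.1.1). Its processed signal is a background-subtracted intensity, and deposited flags mark control, saturated, outlier and well-above-background spots. The deposited series table holds log2 values that differ between arrays as the scanner values do, less a constant per array; each probe's centring is unknown.

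Here log2 signals were averaged over a probe's spots, without outlier spots, and scaled to the array's 75th percentile. Probes well above background on both arrays of a group were kept (37516 of 56605). Accessions were named through RefSeq (GRCm38.p6) for 32994 of 35886 RefSeq probes (91.9%). limma 3.58.1 in R 4.3.3 (lmFit, eBayes) was fitted over all kept probes with Benjamini-Hochberg adjustment; a permutation of 2 against 2 cannot give a two-sided p below 0.333. A gene in a list is shown by its brightest kept probe. Named genes were Derl2, every probe of the 9 enzymes and, per sterol list, the 3 smallest p, of which some are not reported here; Lbr, Marchf6, Idi1, Fdft1, Mvk and the cell markers were singled out after their values were seen. Members and lists were chosen with earlier results of these data known.

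On simulated data for 37516 probes, 200 of them changed, intervals held the true value for 94% of probes changed by log2 1. Noise was drawn independently per probe from the variances of the same fit, so coverage near 95% follows from the set-up. It does not show coverage on the real arrays. Of probes changed by log2 0.5, 0% passed adjustment, as did 0% of those changed by log2 1. Of those changed by log2 2, 95.5% passed. Alternatives covered 5 other scalings or sources (quantile, median of bright probes, 7 spike-in probes, normexp with offset 50, the authors' table), filters and outlier spots kept. They also covered spots on raised background left out (over 1.5 times the median, and spots within 2 rows or columns), an intensity trend together with robust variances, a replicate block and each array left out.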

Additional observations from a re-analysis of the deposited data

How the results depend on the processing

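Under 15 alternatives the 15 probes had 224 values, of which 0 passed the adjusted threshold (limma adjusted p from 0.374 to 0.997) and 0 had an interval that reached 2-fold; the bounds ran from −0.83 to 0.90. Of the 224 values 208 kept their direction. The filters on dim probes, the intensity trend with robust variances and the replicate block cannot change a difference, so their values had to keep it. The sign turned for Msmo1 on A_66_P104901 under quantile normalization (0.03), spike-in scaling (0.07) and normexp (0.02), for Msmo1 on A_51_P209372 (0.01), Nsdhl (0.04), Hsd17b7 on A_55_P1997936 (0.02) and Ebp on A_51_P429682 (0.02) under spike-in scaling, and for Lss on A_51_P296487 under normexp (a value that rounds to 0). With an array left out it turned for Cyp51 on A_55_P2792294, which ran from −0.12 to 0.32, Sqle, from −0.26 to 0.04, Msmo1, from −0.24 to 0.09 on A_51_P209372 and from −0.21 to 0.19 on A_66_P104901, and Nsdhl, from −0.19 to 0.09. The cause was not tested.

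The median over the 9 genes, −0.06, became 0.02 under spike-in scaling and ran from −0.16 to 0.04 with an array left out (−0.12 without control replicate 1, 0.04 without control replicate 2, 0.03 without KO replicate 1 and −0.16 without KO replicate 2). The count of probes past the threshold over the whole array, 0, became 1 with patch spots left out, with spike-in scaling, with quantile normalization and with scaling to the median of bright probes, 2 under normexp and 4 under the intensity trend; with an array left out it ran from 0 to 98, the highest without control replicate 2, where the lone control is assumed to vary like the KO arrays. None of those calls was one of the 15 probes. With the replicate number as a block 0 of the 15 probes and 0 of all probes passed. The median over the 9 genes was −0.06 there too, since a block cannot move it with 2 animals per group. Same-numbered arrays had a correlation of deviations of 0.14 across probes; with only 2 numbers this does not pair the animals. Derl2 on A_55_P2178203 and A_51_P498831 stayed below −1 throughout, with limma adjusted p from 0.0166 to 0.554 for each probe. Both probes passed under the intensity trend with robust variances, and A_55_P2178203 also under normexp (limma adjusted p 0.0384). With 4 arrays in all, precision is limited by their number.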
